A study of Rattus norvegicus with 6 samples.

Results

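The cytosolic ribosomal protein genes of the rat renal cortex are described here after 4 weeks of phenolphthalein, set against corn oil. The genes were chosen by symbol: Rpl or Rps followed by a digit, or Rplp0, Rplp1, Rplp2 or Rpsa, leaving out the Rps6k kinases and names with -ps. The array held probes for 82 such genes of 15284 named genes, and 81 passed the filter on dim probes, out of 12269 named genes that passed it. The gene that did not pass was Rpl27l2, a copy named for Rpl27, whose probe was well above background on 0 arrays. The phenolphthalein group was 3 male Sprague-Dawley rats given phenolphthalein, a dye once sold as a laxative, at 1000 mg/kg/day, and the vehicle group was 3 male Sprague-Dawley rats given corn oil. All were bought at 5 weeks of age, so the data cover 1 sex and 1 outbred stock, and each array held the renal cortex RNA of 1 rat.

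Each ribosome has a small subunit, which reads the mRNA, and a large subunit, which joins amino acids and holds the exit tunnel for the new protein. Their proteins are made in near-equal numbers, and their mRNAs are among the most abundant of any cell. Most of these mRNAs begin with an unbroken stretch of C and T (C and U in the RNA), the terminal oligopyrimidine tract, through which the kinase complex mTORC1 and the binding protein Larp1 set how much of the mRNA is translated. Control of this kind acts on translation and need not be visible in mRNA levels, which is all that the arrays measured. Ribosomal protein genes also have many near-identical processed copies in mammalian genomes, so the intensity of a probe can come from more than 1 locus.

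The starts of several genes whose values are given below are printed to show the tract and the copies that lack it. Each line holds the 30 bases from 8 before the annotated transcription start to 22 from it, 5′ to 3′ on the gene's strand, from RefSeq's GRCr8 annotation. Capitals mark the longest run of C and T in the line, where it is 5 bases or more. The first group holds large and small subunit genes with the tract, and the last 4 lines hold the pairs Rpl22 with its paralog Rpl22l1 and Rps12 with its copy Rps12l4.
Rplp0, chr12:46718369-46718398, minus strand: ccgcaCTTCTCTCgccaggcgtcctcatta
Rpl31, chr9:49143103-49143132, plus strand: ccctcgcgCCTTTCCTTTCCaacttgggcc
Rpl19, chr10:83519056-83519085, plus strand: agcaagCTCTTTCCTTTCgctgctgcgtct
Rps18, chr20:4933737-4933766, plus strand: cttccgCTCTCTCTTCCacaggaggcctac
Rps24, chr16:96509-96538, plus strand: TCCTCTTTTCCTCCTTTacagctcgggcac
Rps26, chr7:1643383-1643412, minus strand: gccgggTCCTCTTTCgagtcttggctccaa
Rpl22, chr5:168117953-168117982, plus strand: gCCCCCCTCCCTTTCTgcctcctctgccgc
Rpl22l1, chr2:113683188-113683217, plus strand: ggatatccggttccgagttgcgcagcgcgc
Rps12, chr1:23500067-23500096, plus strand: agcccagcagagcgcttaaataccgtcatg
Rps12l4, chr7:25007008-25007037, minus strand: cacagaatgctggcgcagggtgcagcgtcc

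RefSeq's promoter table held 66 starts for 65 of the tested genes. Of these starts, 32 (48.5%) opened on a run of 5 or more C or T from the first transcribed base, read on the gene's own strand, against 4.75% of all 33469 starts in the table. The run opened on a C in 23 starts (34.8%), against 2.63% of all starts. The letters CTTTCC, searched on the same strand and overlapping the runs, lay within the 30 bases in 21.2% of the genes' starts and 1.15% of all starts. None of the 6 starts of paralogs and copies opened on such a run, and neither did that of Rps12. For mitochondrial ribosomal protein genes the share of starts with the run, 4.62%, was close to that of all starts. These are matches of letters at annotated starts, which can lie some bases from the start that a kidney cell uses.

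The arrays resembled one another, with Pearson's r between 0.987 and 0.992 over the items tested. Each array had 61657 probes, of which 64.8% to 72.1% gave a signal well above background and 0 were saturated, and 2 to 14 spots were flagged as outliers. With 3 arrays in a group, precision is limited by their number. The 3 vehicle arrays shared 1 slide, phenolphthalein animal 1 lay alone on another, and phenolphthalein animals 2 and 3 shared the third, so slide and group cannot be told apart. Values are log2 of the processed intensity relative to the 75th percentile of that array's non-control probes, so a level of 0 is that percentile. The brightest probe stood for each gene.

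The ribosomal protein mRNAs differed little between the groups. After phenolphthalein 39 of the 81 genes had higher and 42 had lower values than after corn oil, and their median log2 fold change (phenolphthalein over vehicle) was -0.0027, with 5th and 95th percentiles at -0.087 and 0.056. No member passed limma's test at an adjusted p of 0.05, where 0 of all 34417 items passed (0%), and the smallest adjusted p among the members was 0.451. At an unadjusted p under 0.05 there were 2 members (2.47%), against 8.87% of all items. The member on the higher side was Rps12l4, where 3.91% of all items were higher, and the member on the lower side was Rps2, where 4.96% of all items were lower. The median over all items was -0.016, and over all named genes -0.018.

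The intervals were narrow. The 95% interval of the log2 fold change lay within 0.25 of 0 in either direction, a fold of 1.19, for 73 of the 81 members (90.1%). Among all named genes tested the share was 24.9%. Within 0.5, a fold of 1.41, lay the intervals of 78 members (96.3%), against 64.7% of named genes. The fold change itself was under 0.1 in size for 76 members (93.8%), against 50.3% of named genes. Members were bright: 78 of 81 (96.3%) lay above the 75th percentile on all 6 arrays, against 5885 of 12269 named genes (48.0%). The exceptions were the paralogs and copies Rpl3l, Rpl39l1 and Rps12l4. The residual SD between arrays had a median of 0.060 among members and 0.135 among named genes. It was 0.067 among mitochondrial ribosomal protein genes and 0.047 among constitutive proteasome genes, so a small spread was not particular to the members. Mitochondrial ribosomal protein genes, of which 97.0% lay above the 75th percentile on all arrays, had intervals within 0.25 in 68.2% of 66 genes, and constitutive proteasome genes in 80.6% of 31 genes.

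**Figure D1:**
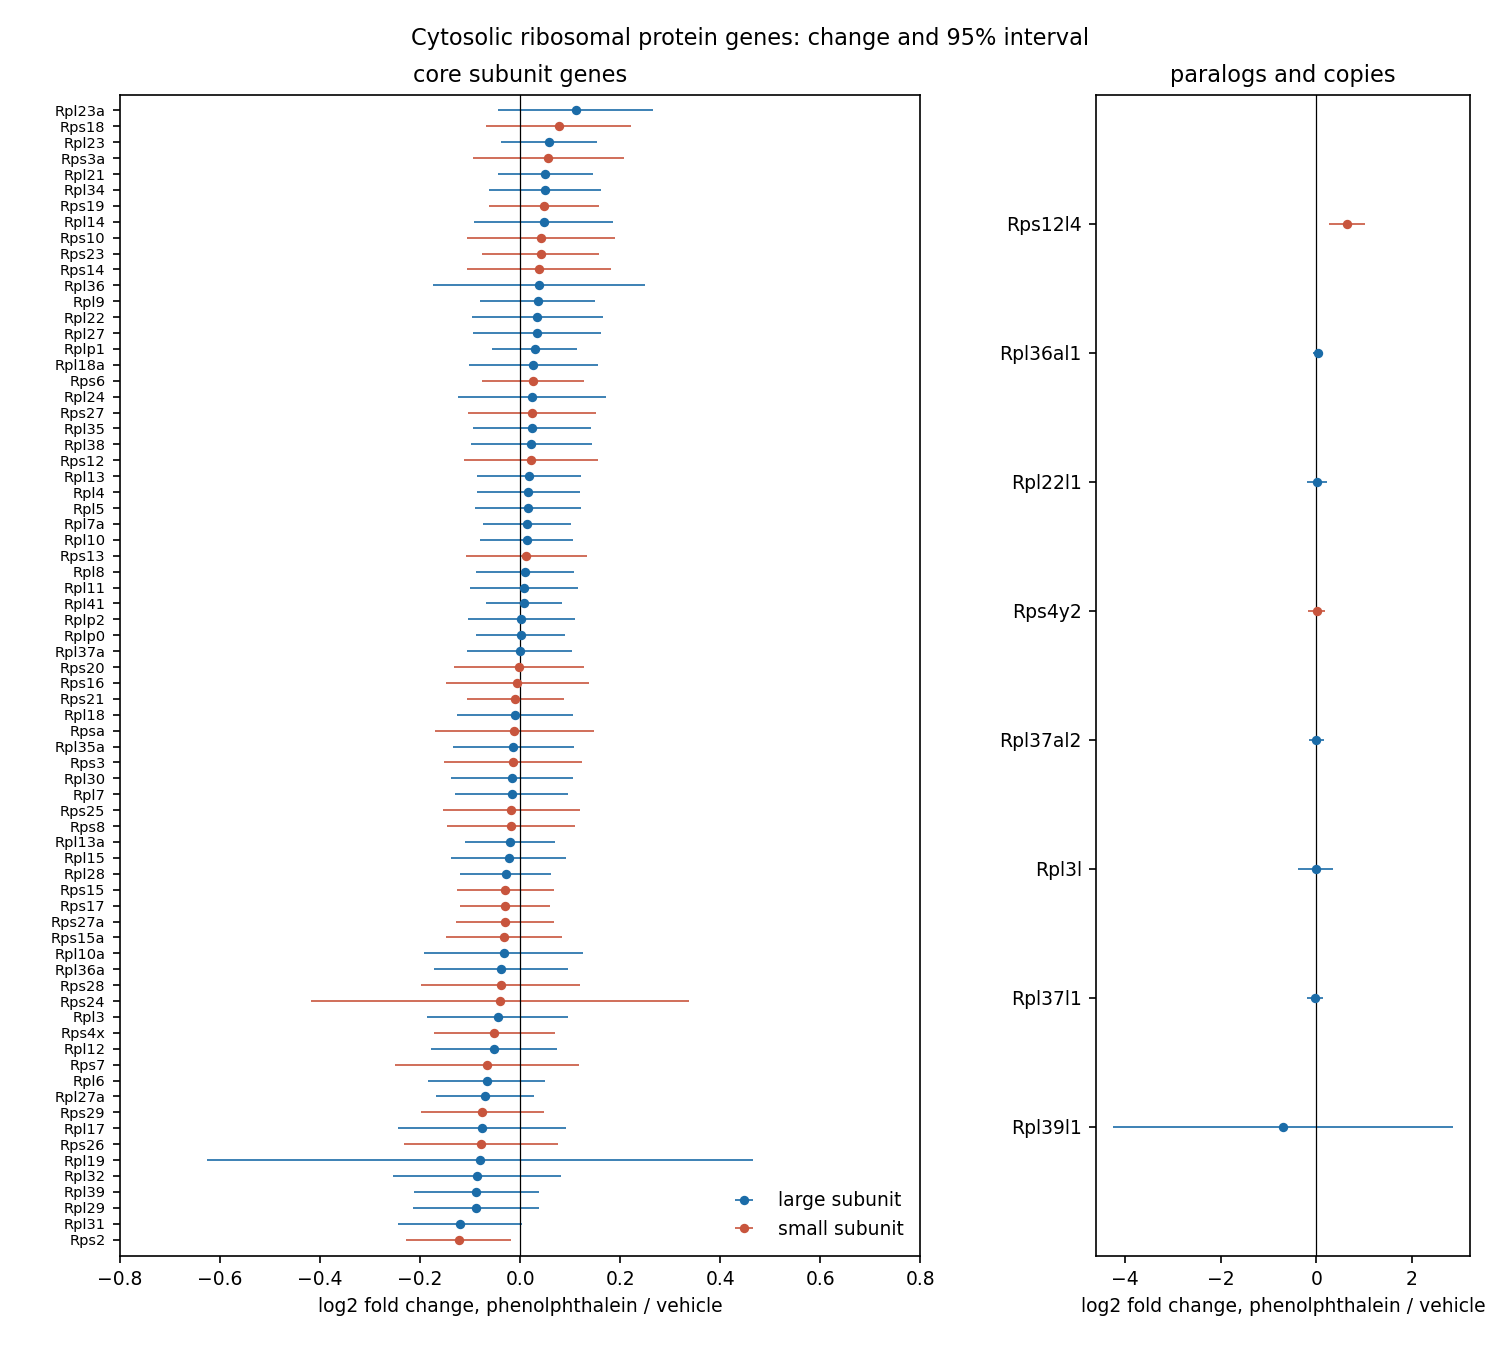
Log2 fold change (phenolphthalein over vehicle, x axis) of the tested ribosomal protein genes, with dots for limma's estimate and bars for its 95% interval, 72 of the 73 core subunit genes on the left and the 8 paralogs and copies on the right on a wider axis. The core genes lie between -0.12 (Rps2) and 0.11 (Rpl23a), the wide bars on the left are Rpl19 and Rps24, and on the right Rps12l4 lies at 0.65 and Rpl39l1 has the widest bar.

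Neither subunit held a gene that passed the test. Among the 50 large subunit genes 27 were higher and 23 lower after phenolphthalein, with a median of 0.0032, and limma called 0 (0 at an unadjusted p under 0.05). Among the 31 small subunit genes 12 were higher and 19 lower, with a median of -0.012, and limma called 0 (2 at an unadjusted p under 0.05). The median of the large subunit genes moved to 0.037 with quantile normalization between arrays and to 0.042 with cyclic loess. The 73 core genes had a median of -0.0057, and the 8 paralogs and copies one of 0.0094.

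The genes of the stalk, the arm of the large subunit that recruits elongation factors, lay close together in both groups. Rplp0, its base, stood at 8.37, 8.41 and 8.40 in phenolphthalein animals 1 to 3, against 8.38, 8.43 and 8.36 in vehicle animals 1 to 3. The 6 values interleaved, and the log2 fold change was 0.0010 ± 0.038 (SE, limma, n = 3 arrays per group). The acidic stalk proteins Rplp1 and Rplp2 gave 0.029 ± 0.036 and 0.0023 ± 0.045. Rpsa, a small subunit protein also known as the laminin receptor precursor, gave -0.012 ± 0.067. Under other scalings the sign of these small differences turned: Rpsa was at 0.014 with quantile normalization, and all 3 stalk genes were negative, between -0.017 and -0.010, with the median over a gene's probes. Limma's adjusted p was 0.840 or more for each of the 4 genes. Of the 4 probes of Rpsa the brightest lay nearest 0, and the dimmer ones gave -0.168, -0.136 and -0.134 (limma adjusted p 0.532 or more).

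Members known for work at the edge of the ribosome lay between -0.030 and 0.047. Rps6, the small subunit protein phosphorylated by the S6 kinases, stood at 7.58, 7.67 and 7.69 after phenolphthalein, against 7.63, 7.64 and 7.59 after corn oil. Its groups overlapped, with a difference of 0.026 ± 0.043 (SE, limma, n = 3 per group). Rpl5 and Rpl11, which bind the 5S RNA and in free form hold the ubiquitin ligase Mdm2, gave 0.015 ± 0.045 and 0.0076 ± 0.046. Rpl10, which is added late and readies the large subunit for joining, gave 0.013 ± 0.039. Rps19, the gene most often mutated in human Diamond-Blackfan anaemia, gave 0.047 ± 0.047, and Rps27a, made as a fusion with ubiquitin, gave -0.030 ± 0.041. Limma's adjusted p was between 0.792 and 0.971 for these 6 genes. With normexp background correction Rps6 and Rpl10 took values of -0.021 and -0.0034, and with quantile normalization Rps27a took 0.0050. With the median level over a gene's probes on each array, Rpl11 and Rps27a took -0.020 and 0.080. The 3 probes of Rps27a gave -0.030, 0.080 and -0.030 from brightest to dimmest, so the median of their changes stayed at -0.030.

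On the lower side, Rps2, a small subunit protein near the channel by which mRNA enters, had the smallest p. It stood at 7.47, 7.55 and 7.58 after phenolphthalein, against 7.68, 7.64 and 7.65 after corn oil. All phenolphthalein animals lay below all vehicle animals, by less than 0.06 at the nearest pair. The log2 fold change was -0.123 ± 0.044 (SE, n = 3 per group), with an unadjusted p of 0.0275 and an adjusted p of 0.529 by limma. Its 7 probes all had negative values, from -0.132 to -0.060, and the median of these changes was -0.085. Taking the median level over its probes on each array gave -0.060, the change of its probe of middle brightness.

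Rpl31, a protein at the rim of the exit tunnel, stood at 6.54, 6.65 and 6.57 after phenolphthalein, against 6.68, 6.77 and 6.66 after corn oil. The groups were apart by less than 0.01 at the nearest pair. The difference was -0.120 ± 0.052 (SE, n = 3 per group; limma unadjusted p 0.0546, adjusted p 0.573). It depended on the probe and the processing: the 5 probes of Rpl31 ran from -0.120 to 0.0014, and normexp correction gave -0.0060 for the brightest. The brightest probe was chosen anew with normexp, so that value can belong to another probe. Its start, printed above, is 1 of those opening on a long tract.

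Other core genes were taken for the smallest p among those below 0, so their sign follows from the choice. Those described here lay between -0.088 and -0.067. They were Rpl27a, Rpl29, Rpl39, which lines the exit tunnel, Rps29, Rpl6, Rps26, which touches the mRNA where it leaves the small subunit, and Rpl32. Rpl27a stood at 6.42, 6.50 and 6.45 after phenolphthalein, against 6.53, 6.53 and 6.53 after corn oil, a difference of -0.070 ± 0.041. The groups did not overlap, and limma's adjusted p was 0.663. Rpl28 also had no overlap, with a difference of -0.029 ± 0.039, and is named after its values were seen.

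On the higher side, the core gene with the smallest p was Rpl23a, a protein beside the exit tunnel to which the signal recognition particle binds. It stood at 4.45, 4.38 and 4.34 after phenolphthalein, against 4.28, 4.37 and 4.18 after corn oil. Phenolphthalein animal 3 lay below vehicle animal 2, so the groups overlapped, and the difference was 0.111 ± 0.065 (SE, n = 3 per group; limma adjusted p 0.660). Its 3 probes were all positive, from 0.066 to 0.111. Rpl23, Rpl21, Rps18, Rpl34, Rps19, Rps3a and Rps23 followed, with differences from 0.041 to 0.077 and overlapping groups. The 8 probes of Rpl21 were all positive, from 0.028 to 0.111, while the 4 of Rps23 ran from -0.104 to 0.041.

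Counted over the list, the groups did not overlap in 6 of the 81 members (7.41%), against 15.7% of all items. Of these 5 lay below the vehicle values, among them Rps2, Rpl31, Rpl27a and Rpl28, and Rps12l4 lay above. The share was under the background, and nothing is read from it about the members.

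Among the paralogs and copies, Rps12l4 had the widest separation of any member. It stood at -3.84, -3.73 and -4.07 after phenolphthalein, against -4.62, -4.53 and -4.44 after corn oil. All phenolphthalein animals were above all vehicle animals, at a level well below the 75th percentile yet well above background on all 6 arrays. The log2 fold change was 0.647 ± 0.155 (SE, n = 3 per group), a fold of 1.57, with an unadjusted p of 0.00435 and an adjusted p of 0.451 by limma. It rests on 1 probe, and with normexp background correction the difference was 0.312. Rps12 itself, the bright gene it is named for, stood at 7.69, 7.89 and 7.79 after phenolphthalein, against 7.80, 7.78 and 7.73 after corn oil. Its groups overlapped, with a difference of 0.021 ± 0.057. Neither start of this pair opens on a run of C and T in the lines above.

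Rpl22l1, the paralog that can take the place of Rpl22 in the large subunit, stood at 5.253, 4.992 and 5.001 after phenolphthalein, against 5.130, 5.114 and 4.946 after corn oil. The groups overlapped and the difference was 0.019 ± 0.089, while its 3 dimmer probes gave -0.221 to -0.108. Rpl22 gave 0.035 ± 0.056. The 2 genes differ at their starts, where Rpl22 has a long run of C and T and Rpl22l1 has none of 5 bases.

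In the remaining paralogs the groups overlapped. Rpl3l, a large subunit paralog of striated muscle, stood at -4.00, -4.13 and -3.72 after phenolphthalein, against -3.86, -4.01 and -3.97 after corn oil, a difference of -0.0076 ± 0.155. Its parent Rpl3 gave -0.045 ± 0.059. Rpl39l1, a relative of Rpl39 that in mice is known from the testis, was well above background on 1 of 3 phenolphthalein arrays and 2 of 3 vehicle arrays. Its values ran from -8.46 to -3.06 after phenolphthalein and from -7.61 to -4.33 after corn oil, so its difference of -0.690 has an SE of 1.50. Without phenolphthalein animal 2 it was 0.341, and it carries no direction. Rps4y2 gave 0.015 ± 0.075 and Rps4x gave -0.052 ± 0.051. Rpl36al1 gave 0.034 ± 0.042 and Rpl36a -0.038 ± 0.057. Rpl37al2 gave 0.0041 ± 0.064 and Rpl37a -0.0013 ± 0.044, and Rpl37l1 gave -0.022 ± 0.068.

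The levels varied more between animals than between groups. Relative to each gene's vehicle mean, the median member stood at -0.043, 0.043 and -0.00085 in phenolphthalein animals 1 to 3, against 0.0082, 0.020 and -0.028 in vehicle animals 1 to 3. The lowest and highest of the 6 medians were both phenolphthalein animals, so the group difference was smaller than the spread between animals. Phenolphthalein animal 1, alone on its slide, held the lowest of the 6 values for 37 members (45.7%), against 28.5% of named genes, and vehicle animal 3 for 21 members (25.9%), against 11.6% of named genes. Phenolphthalein animal 2 held the highest value for 31 members (38.3%), against 13.0% of named genes. The medians over all named genes were -0.034, -0.022 and -0.0038 in phenolphthalein animals 1 to 3, against 0.0062, -0.013 and 0.0079 in vehicle animals 1 to 3. Without phenolphthalein animal 1 the members' median fold change was 0.018, with 51 of 81 members higher, and without phenolphthalein animal 2 it was -0.020, with 29 of 81 higher. Whether the slide has a part in these positions was not tested.

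**Figure D2:**
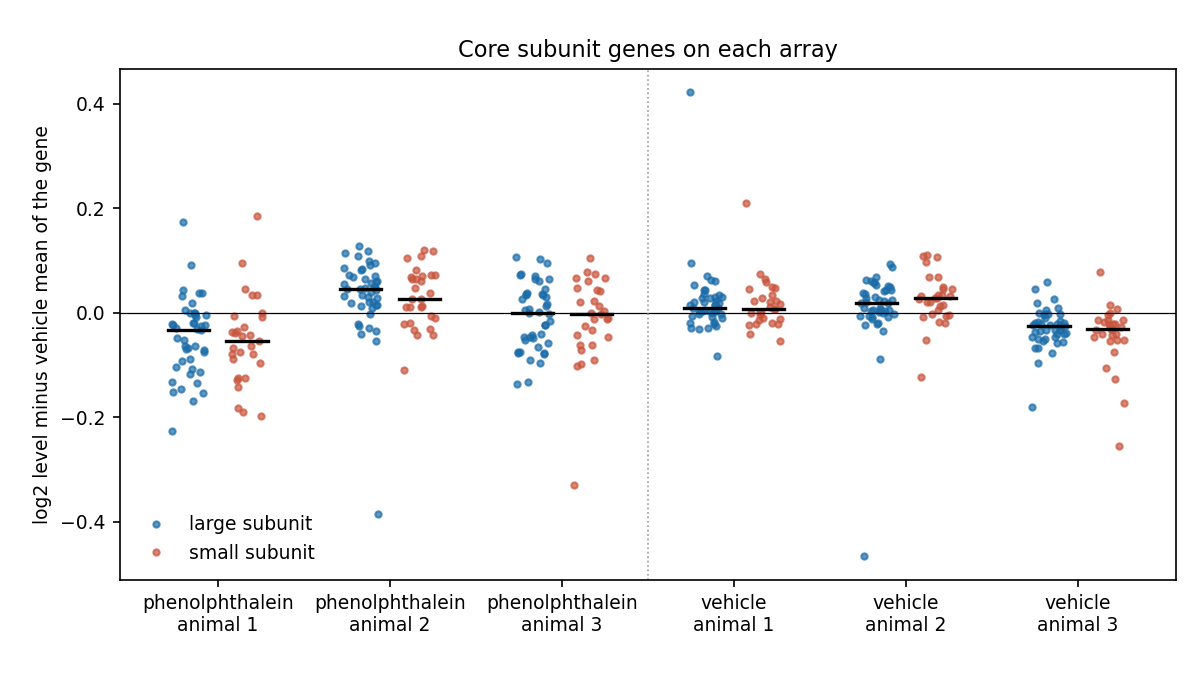
Log2 level of each core ribosomal protein gene on each array minus the gene's mean over the vehicle arrays (y axis), with 1 dot per gene and black lines at the median of the large (blue) and small (red) subunit genes. The median lines lie lowest in phenolphthalein animal 1 and stand above 0 in phenolphthalein animal 2 and in vehicle animals 1 and 2.

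A pair of bright probes had a wide spread between arrays in both groups, and they are named after their values were seen. The brightest probe of Rpl19, a protein that bridges the subunits, stood at 7.37, 6.95 and 7.44 after phenolphthalein, against 7.75, 6.87 and 7.38 after corn oil. Its residual SD of 0.367 compares with 0.046 to 0.094 for the other 3 probes of the gene. The brightest probe of Rps24 stood at 6.20, 6.04 and 5.69 after phenolphthalein, against 6.23, 6.06 and 5.76 after corn oil, with an SD of 0.250, and its other probe had one of 0.030. In both genes the other probes gave smaller differences, from -0.071 to -0.0045 for Rpl19 and -0.0040 for Rps24. The wide intervals of these genes therefore belong to 1 probe each.

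Counted over all probes of the members, lower values outnumbered higher ones. Of 240 tested probes 87 were higher and 153 lower after phenolphthalein, with a median of -0.022 and 0 called by limma (smallest adjusted p 0.406). Among the 159 probes that were not the brightest of their gene, 111 were lower (69.8%), against 53.5% of all 43473 probes tested, and 8 (5.03%) were lower at an unadjusted p under 0.05, against 4.91% of all probes. Signs differed among the probes of 41 of the 73 genes with several probes, and the median span between the highest and lowest probe of a gene was 0.075. At levels above 6, 60.7% of 117 member probes were lower, against 67.0% of all probes at those levels. Between 3 and 6 the share was 65.1% of 106 member probes, against 60.4% of all probes. Under 3 it was 76.5% of 17 member probes, against 52.4% of all probes.

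The probe with the smallest p was the second probe of Rps26, dimmer than the one that stands for the gene. It stood at 1.37, 1.52 and 1.35 after phenolphthalein, against 1.76, 1.77 and 1.78 after corn oil. The groups were apart, with a difference of -0.355 ± 0.067 (SE, n = 3 per group; limma unadjusted p 0.00112, adjusted p 0.406). The brighter probe of Rps26 gave -0.079 ± 0.065 with overlapping groups. The span of 0.276 between the probes was among 7 that passed 0.2.

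**Figure D3:**
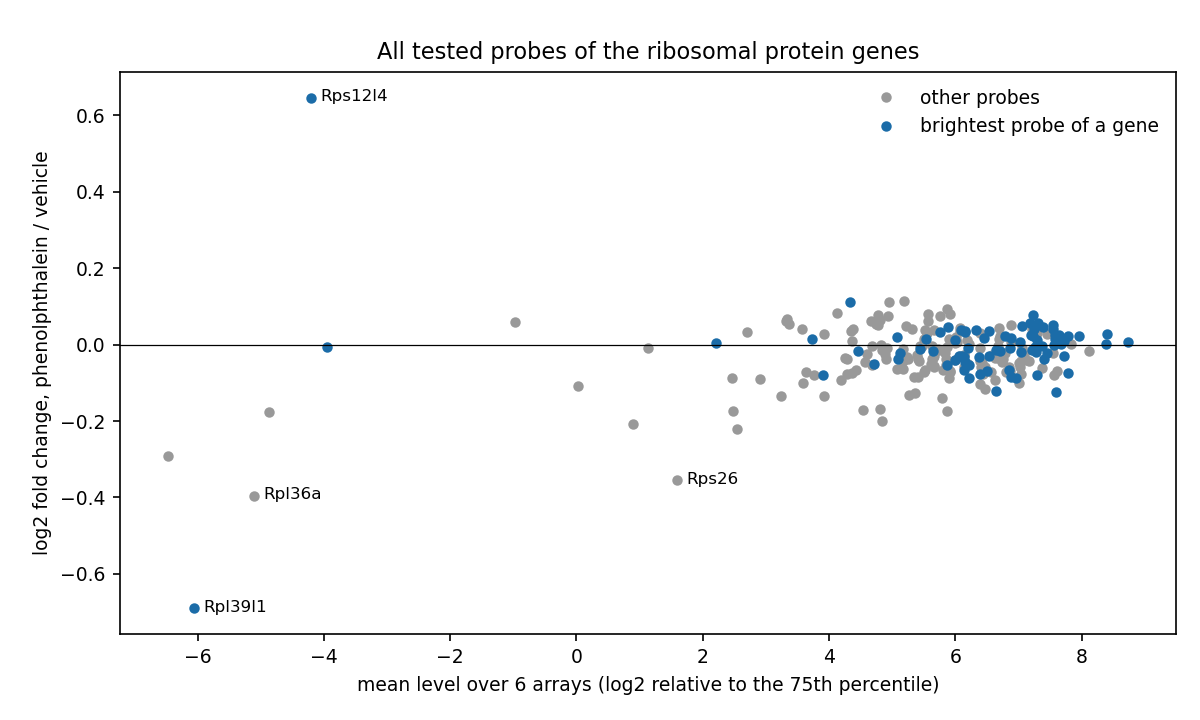
Log2 fold change (phenolphthalein over vehicle, y axis) of all 240 tested probes of the ribosomal protein genes against their mean level over 6 arrays (x axis, log2 relative to the 75th percentile), the brightest probe of each gene in blue and other probes in grey. Bright probes gather close to 0, and the labelled probes of Rps12l4, Rps26, Rpl36a and Rpl39l1 lie at lower levels.

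The direction of the list's median depended on the scaling. It was 0.025 with quantile normalization, where 59 members were higher and 22 lower, and 0.031 with cyclic loess, where 58 were higher and 23 lower. It was 0.0045 with median centring (42 higher, 39 lower), -0.0060 with normexp and -0.017 with the median over a gene's probes (30 higher, 51 lower). Over all named genes the median was -0.018 as scaled here, -0.0097 with quantile normalization and -0.0063 with loess. None of these settings called a member.

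**Figure D4:**
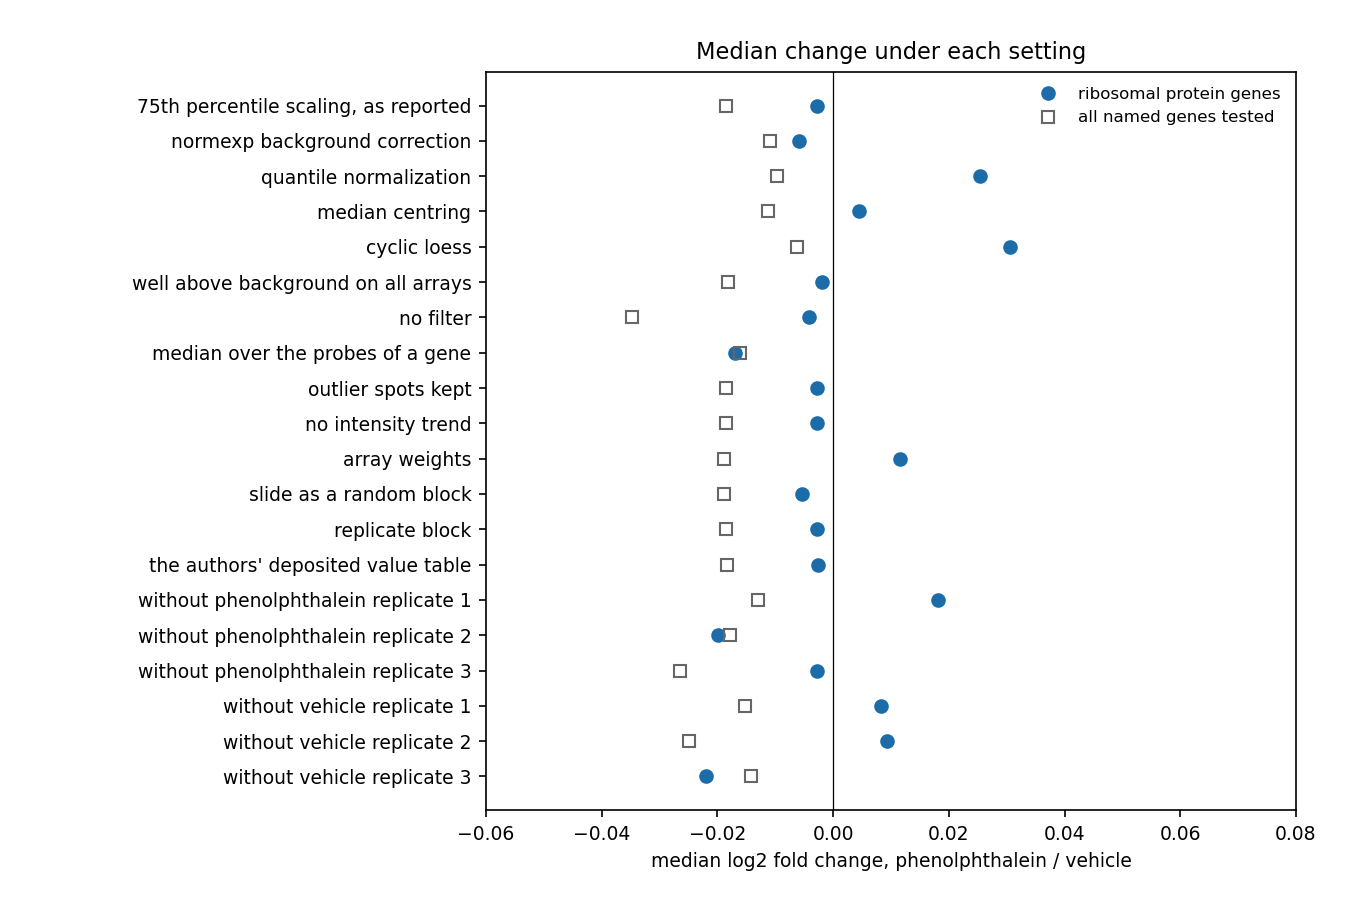
Median log2 fold change (phenolphthalein over vehicle, x axis) of the ribosomal protein genes (filled circles) and of all named genes tested (open squares) under each processing setting (rows). The members' medians lie between -0.022 and 0.031, on both sides of 0.

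Subunit proteins that carry other names gave similar values. Fau, a ubiquitin-like protein fused to a small subunit protein, gave 0.0096 ± 0.043, and Rack1, a scaffold on the small subunit, gave -0.018 ± 0.058.

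Genes that act with the ribosome were set beside it, and limma called 0 genes in each list. At an unadjusted p under 0.05 there were 3 higher ribosome biogenesis genes, 2 higher RNA polymerase I genes, 1 higher gene each among other tract mRNAs, initiation factors and the proteasome, and 2 higher and 2 lower mitochondrial ribosomal protein genes. Of all items 3.91% were higher and 4.96% lower at that p, and nothing is read from these small counts. Among 16 of 17 other mRNAs known to carry the tract, 12 were higher and 4 lower after phenolphthalein, with a median of 0.024. Pabpc1, the poly(A)-binding protein, stood at 5.80, 5.79 and 5.80 after phenolphthalein, against 5.71, 5.70 and 5.69 after corn oil, a separated difference of 0.100 ± 0.040 (limma adjusted p 0.548). Within the members, the genes whose start opens on the run had a median of -0.0056 (15 higher, 17 lower) and those without it 0.0076 (19 higher, 14 lower). The other tract mRNAs were listed from background knowledge, and by the letters at their annotated starts 2 of 14 starts (14.3%) opened on the run, so the lists rest on unlike definitions.

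Of the 31 translation initiation factors measured 16 were higher and 15 lower, with a median of 0.0084. Eif3j, a loosely bound part of the factor that loads the small subunit, gave 0.258 ± 0.074 (limma adjusted p 0.480). The 16 genes of elongation, termination and recycling had a median of 0.028 (10 higher, 6 lower), where Eef2k, the kinase that inhibits the elongation factor Eef2, gave 0.195 ± 0.088. Eif3h and Eef1b2 stand in more than 1 of these lists.

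Among 42 ribosome biogenesis genes 18 were higher and 24 lower, with a median of -0.012. Dkc1, the pseudouridine synthase of ribosomal RNA, stood at 2.632, 2.691 and 2.772 after phenolphthalein, against 2.473, 2.393 and 2.495 after corn oil. Its groups were apart, with a difference of 0.244 ± 0.064 (SE, n = 3 per group; limma adjusted p 0.461). Of the 13 genes of RNA polymerase I, which makes ribosomal RNA, 5 were higher and 8 lower, with a median of -0.065. Polr1f, a subunit of it, had the smallest p of its list, as Dkc1 had of its own. Both were thus chosen by their values, and both lay on the side opposite to the list's median. Polr1f stood at 1.25, 1.05 and 1.27 after phenolphthalein, against 0.906, 0.762 and 0.884 after corn oil. Its groups were apart as well, with a difference of 0.340 ± 0.085 (limma adjusted p 0.458).

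The mTORC1 pathway genes gave 6 higher and 9 lower values of 15, with a median of -0.0033. Myc, a transcription factor that drives ribosome production, gave -0.264 ± 0.170 with overlapping groups. It did not have the smallest p of the list, and the genes ahead of it lay on both sides of 0. Mitochondrial ribosomal protein genes, which serve the ribosome inside mitochondria, had 28 higher and 38 lower values with a median of -0.016. Mrpl18 gave 0.614 ± 0.199 and Mrpl52 -0.392 ± 0.147 (limma adjusted p 0.505 and 0.533), so the ends of this list lay farther from 0 than those of the cytosolic core genes. With its paralogs and copies, the cytosolic list ran from -0.690 to 0.647, beyond the mitochondrial ends. The constitutive proteasome had 15 higher and 16 lower values with a median of -0.0021, and its subunit Psmd7 gave 0.206 ± 0.058.

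Markers of the cells in the tissue were read beside these values. Of 12 markers of renal cortex tubules 11 were tested, 3 higher and 8 lower with a median of -0.116. Limma called 0 of them (3 at an unadjusted p under 0.05, against 8.87% of all items). Their summed level, as multiples of the 75th percentile, was 1433 to 1559 after phenolphthalein and 1533 to 1639 after corn oil. Of 12 leukocyte markers all were tested and 10 were lower after phenolphthalein, with a median of -0.49 and summed levels of 110.7 to 111.9 after phenolphthalein, against 130.7 to 171.2 after corn oil. Limma called 0 of them (7 at an unadjusted p under 0.05, against 8.87% of all items). None was at background on any array, and their part in the ribosomal values was not tested. In a bulk sample, fewer cells of a type and less RNA per cell cannot be told apart. Of 8 liver markers 7 were tested, 6 higher and 1 lower, with a median of 0.51, and limma called 0 (0 at an unadjusted p under 0.05). They summed to 10.5 to 30.1 after phenolphthalein and 10.3 to 20.3 after corn oil, so the groups overlapped.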

How the data were processed

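Renal cortex RNA of 6 rats was measured on single-colour Agilent arrays. The authors deposited scanner files whose processed intensity was background-subtracted and detrended within each array by Agilent Feature Extraction 10.7.1.1, per the file headers; the submitters' processing notes name version 10.7. The deposited value table holds a linear ratio to the 75th percentile, judged from its values; each column equalled the scaled intensities of a same-group array with a different replicate number, with an SD of the log2 difference of 0.000257 to 0.000263 and column medians of 0.102 to 0.106. The table served as an alternative, and no column was left out (0 columns). Animal numbers here follow the scanner files, and which animal a number stands for within a group is open.

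Probes were named through RefSeq accessions in a GRCr8 gene table: 27460 had 1 symbol, 0 had several and 34197 had none. Items well above background on at least 3 arrays were fitted with limma 3.58.1 in R 4.3.3 (lmFit, eBayes with an intensity trend), two-sided, Benjamini-Hochberg adjusted over 34417 items; the fit was checked on simulated data. Fits of all probes adjusted over 43473 probes. SEs are limma's. The p-values set each difference against a spread between arrays that limma drew towards that of items of similar intensity. They rest on 3 animals a group, whose slides and groups cannot be told apart. Normexp used the median spot signal (offset 50), as the files hold no mean signal column. Replicate numbers were checked for pairing: deviations from group means correlated at -0.0061, -0.015 and 0.025, so no block was used.

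The members, lists and rules were chosen with earlier results of these data known. Named members were up to 10 per direction with the smallest unadjusted p, the stalk genes and Rpsa, paralogs with their parents, Rps6, Rpl5, Rpl11, Rps27a, Rpl10 and Rps19; in other lists up to 3 genes each. Genes that the rule also takes but that are not named are not reported here. Podocyte (4 of 4 tested, 3 higher, 1 lower), erythroid (4 of 4, 1 higher, 3 lower) and endothelium and fibroblast markers (6 of 6, 3 higher, 3 lower) had 0 calls each. At an unadjusted p under 0.05 in limma there were 1, 1 and 2, against 8.87% of all items. Alternatives were normexp, quantile, median centring and cyclic loess scaling, stricter and no filters, the median over probes taken on each array, outlier spots kept, no trend, array weights, slide as a random block, a replicate block, the value table, core genes only and leaving out each animal.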

Additional observations from a re-analysis of the deposited data

How the results depend on the processing

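No setting called a member, and over all items 0 were called except when an animal was left out (0 to 2). The members' median lay between -0.022 and 0.031, on both sides of 0, so no direction is given for the list. The replicate block, for numbers that do not pair the animals, left it at -0.0027 with 0 calls, and with every probe counted, chosen after seeing the data, it was -0.022. Over all tested members, 23 turned their sign with normexp, 20 with quantile normalization, 3 with median centring, 19 with cyclic loess, 27 with the median over probes, 10 with array weights and 7 to 16 when an animal was left out, all with limma's test not passed. The members named in the report and the subunit genes under other names are given here. With quantile normalization 59 members were higher, the large subunit's median was 0.037 and that of other tract mRNAs 0.050; with cyclic loess these medians were 0.042 and 0.050, and that of initiation factors 0.017. With normexp the medians of subunits under other names, initiation factors and RNA polymerase I were -0.051, -0.0059 and -0.0016. The cause was not tested. Among these, the signs turned with normexp for Rpl36al1 (-0.0515), Rplp1 (-0.0078), Rpsa (0.0405), Rpl3l (0.029), Rpl10 (-0.0034), Rpl22l1 (-0.013), Rpl39l1 (0.126), Rps4x (0.0003), Rps4y2 (-0.015), Rps6 (-0.021), Rps24 (0.0049), Rpl37l1 (0.0016) and Fau (-0.024); with quantile normalization for Rpsa (0.014), Rpl3l (0.015), Rpl7 (0.0099), Rpl28 (0.0028), Rpl37a (0.041), Rpl37l1 (0.025) and Rps27a (0.0050); with median centring for Rpl37a (0.0059); with cyclic loess for Rpsa (0.015), Rpl3l (0.0006), Rpl7 (0.016), Rpl28 (0.0007), Rpl37a (0.037), Rpl37l1 (0.015) and Rack1 (0.0034); with array weights for Rpsa (0.0064), Rpl22l1 (-0.016), Rpl37a (0.012), Rpl37l1 (0.0115) and Rack1 (0.0007); and with the median over probes for Rps23 (-0.058), Rpl32 (0.019), Rplp0 (-0.017), Rplp1 (-0.010), Rplp2 (-0.014), Rpl22l1 (-0.198), Rpl22 (-0.051), Rpl36a (0.037), Rps4y2 (-0.097), Rpl11 (-0.020), Rpl37l1 (0.020) and Rps27a (0.080). Leaving out each animal gave -0.0057 to 0.028 for Rpl10, -0.025 to 0.036 for Rpl11, -0.067 to 0.064 for Rpl22l1, -0.314 to 0.131 for Rpl19, -0.019 to 0.033 for Rpl37a, -0.038 to 0.045 for Rpl37al2, -0.078 to 0.051 for Rpl37l1, -0.167 to 0.105 for Rps24, -1.64 to 0.341 for Rpl39l1, -0.122 to 0.081 for Rpl3l, -0.0009 to 0.035 for Rpl5, -0.048 to 0.0090 for Rpl7, -0.015 to 0.023 for Rplp0, -0.027 to 0.018 for Rplp2, -0.0035 to 0.074 for Rps27, -0.047 to 0.071 for Rps4y2, -0.055 to 0.043 for Rpsa, -0.018 to 0.034 for Fau and -0.042 to 0.025 for Rack1. The list medians ran from 0.019 to 0.053 for other tract mRNAs, -0.011 to 0.012 for initiation factors, -0.056 to 0.042 for RNA polymerase I, -0.033 to -0.0013 for mTORC1 genes and -0.035 to 0.0007 for the proteasome. The median over probes was taken over levels on each array, so it can follow a probe of middle brightness. The median of the probes' own changes was -0.030 for Rps27a, -0.023 for Rpl36a and -0.0069 for Rpl32, which kept the brightest probe's sign. For the other genes given under that setting it turned as well. Signal near background limits Rpl39l1.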
